A study of Homo sapiens with 8 samples.

Results

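Desmosomes are the junctions that tie the keratin filaments of neighbouring epithelial cells together. Their cadherins, the desmogleins and desmocollins, bridge the gap between cells, the armadillo proteins plakoglobin and plakophilins bind the cadherin tails inside the cell, and desmoplakin links this plaque to keratin. In stratified and mammary epithelium they give the sheet mechanical strength, and their loss is a known part of the epithelial-mesenchymal transition (EMT). To follow the chromatin around the genes of this junction during EMT, 10 desmosome genes were examined: DSP, PKP1, PKP2, PKP3, JUP, DSG2, DSG3, DSC2, DSC3 and PERP. The genes were given as a list. All accessible regions that overlapped the gene body or the 50 kb on either side were taken, which gave 138 of the 126658 regions found in the series.

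Chromatin accessibility was measured in MCF10A cells by ATAC-seq, a method that tags DNA free of nucleosomes with a transposase. MCF10A is an established and non-tumorigenic human mammary epithelial cell line. Cells received solvent or 5 ng/ml TGFβ1, a cytokine that induces EMT in this line, for 6, 24 or 72 h, with 2 replicates per condition and 8 libraries in all. Solvent samples carry time 0 in the labels, although the study also describes its control as 72 h of solvent. The deposited values are 4 peak lists, each called on both replicates of a condition together, so that there is 1 value per condition, no spread between replicates and no test of any difference given here.

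Accessibility is given as the AUC, the area under the significance curve that the peak caller reported for a peak, summed over the peaks of a region. The AUC grows with sequencing depth. The study gives the same read number for every sample, but the depth reached in each list is unknown. Each list was therefore divided by one factor (1.36, 1.30 and 1.19 for 6, 24 and 72 h) that set its median ratio to solvent to 1 at regions within 3 kb of any transcriptional start site (TSS). All values are scaled AUCs or their log2 ratios to solvent. The smallest AUC in every list was 200. For ratios of single regions, a region without a peak in a list was set at that floor, and its ratio is a lower limit of the change. Peak numbers ranged from 86209 in solvent to 118433 at 24 h. All 7 epithelial marker genes (KRT5, KRT14, KRT17, TP63, CDH1, EPCAM and ITGB4) had a peak within 3 kb of a TSS in every list. Of the markers of other cell types, the leukocyte gene CD3E had none in any list, whereas PTPRC went from 1510 in solvent to 2811 at 72 h, and the endothelial genes PECAM1 and CDH5 went from 1633 to 2363 and from 625 to 2244. Their part in the results was not tested. In a population of cells, a smaller number of cells with an open site and less opening per cell cannot be told apart.

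Chromatin around the desmosome genes changed little in sum, and single regions in their neighbourhood were higher or lower than solvent. None of the 10 genes reached a 1.5-fold difference in summed accessibility at any time. The 1 promoter region compared per gene, chosen for the largest solvent AUC, kept a peak in all 4 lists. Of the 32 regions within 3 kb of a TSS of a desmosome gene, 2 lost their solvent peak by 72 h. Over all regions within 3 kb of a TSS, 1013 of 43524 did. In all, 19 of the 138 regions passed a 2-fold difference at some time, 15 upward (10.9%, where all regions had 17.1%) and 4 downward (2.90%, where all regions had 1.78%). The sequences around the summits of the 3 regions that were lowest and the 3 that were highest relative to solvent at 72 h, among those that the naming rule selected with a peak in both lists, are shown first, with the promoter of DSP for comparison, because the regional changes described here are located in them. Each runs 50 bases to either side of the summit on the plus strand of hg38, written 5′ to 3′, and capitals mark a match to the AP-1 motif TGANTCA or to the E-box CACCTG on either strand. AP-1 is the family of JUN and FOS factors, and this E-box is the site bound by SNAIL and ZEB proteins.
Highest, upstream of DSP, chr6:7528675-7528775: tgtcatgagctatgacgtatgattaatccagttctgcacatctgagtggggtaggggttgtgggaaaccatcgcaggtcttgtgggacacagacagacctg
Highest, upstream of DSG3, chr18:31399835-31399935: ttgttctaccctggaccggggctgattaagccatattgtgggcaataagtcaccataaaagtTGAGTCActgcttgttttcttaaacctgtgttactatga
Highest, downstream of JUP, chr17:41739815-41739915: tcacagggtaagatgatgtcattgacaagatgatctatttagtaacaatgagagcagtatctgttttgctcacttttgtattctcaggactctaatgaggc
Lowest, intron of PKP1, chr1:201289067-201289167: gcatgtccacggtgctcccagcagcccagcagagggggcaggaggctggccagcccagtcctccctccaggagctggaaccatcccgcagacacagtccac
Lowest, downstream of PKP3, chr11:447073-447173: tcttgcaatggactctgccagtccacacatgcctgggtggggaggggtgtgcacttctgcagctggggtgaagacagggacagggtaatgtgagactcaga
Lowest, downstream of PKP1, chr1:201353388-201353488: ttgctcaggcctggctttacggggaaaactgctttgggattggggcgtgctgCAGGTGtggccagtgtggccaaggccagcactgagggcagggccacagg
Promoter of DSP, chr6:7541585-7541685: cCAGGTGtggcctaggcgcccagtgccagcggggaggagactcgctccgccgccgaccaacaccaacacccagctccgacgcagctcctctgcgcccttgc

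To compare the genes as wholes, the scaled AUC was summed over each window. A region without a peak in a list added nothing to that sum, so a peak gained or lost between lists counted in full. DSP, which encodes desmoplakin, went from 20475 with solvent to 23342, 21899 and 21422 after 6, 24 and 72 h of TGFβ1, log2 ratios of 0.19, 0.10 and 0.07. PKP1, the plakophilin of the upper layers of stratified epithelia, held by far the most accessible window, with 64139, 67630, 69549 and 64539. Per kb of window this was 429 in solvent, above JUP with 242 and PKP3 with 207, and the lowest was DSC3 with 71.4. JUP, which encodes plakoglobin, went from 32054 to 33371, 33008 and 31498. PKP3 measured 23211, 22541, 22806 and 22761, and PKP2 measured 18464, 18916, 17718 and 18231. The plaque genes thus stayed within a narrow band around their solvent levels, with log2 ratios between -0.06 and 0.19.

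Among the cadherins, both desmogleins were above solvent at all 3 times, and the desmocollins differed between times. DSG2, the desmoglein of simple epithelia, went from 12649 to 13954, 13286 and 14026, a log2 ratio of 0.15 at 72 h. DSG3, a desmoglein of basal keratinocytes, went from 16361 to 18196, 17684 and 18113, also 0.15 at 72 h. These neighbouring genes are not independent, since 14 regions lie in both windows. DSC2 went from 14458 to 14813, 15229 and 13626, which at -0.09 was the lowest of the 10 genes at 72 h. DSC3 measured 10960, 10866, 11364 and 11008, and it shares 7 regions with DSC2. PERP, a membrane protein of desmosomes and a target of p53 and p63, measured 12984, 13106, 12119 and 12865.

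**Figure D1:**
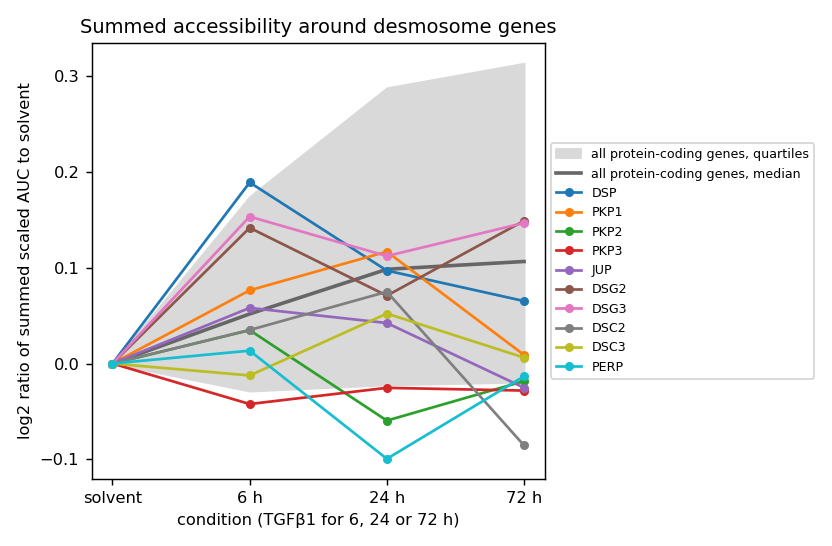
Log2 ratio of the summed scaled AUC to solvent for the 10 desmosome genes (coloured lines, 1 value per condition) against treatment, with the median (grey line) and quartiles (grey band) of all protein-coding genes. At 72 h the desmosome genes lie between -0.09 and 0.15, while the median of all genes is 0.11.

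Set beside all protein-coding genes, the desmosome windows had a similar median at 6 h and a lower one at 24 and 72 h. Of all genes, 55.9%, 42.5% and 43.7% lay within the range of the 10 desmosome genes at the 3 times. The median log2 ratios of the desmosome windows were 0.05, 0.06 and -0.0036 at 6, 24 and 72 h, where all genes had 0.05, 0.10 and 0.11. Of all genes with a value in both lists, 4.24%, 10.2% and 11.3% were at least 1.5-fold higher at 6, 24 and 72 h, and 0.016%, 0.0319% and 0.16% were at least 1.5-fold lower. With 10 genes, 0 past the limit is near these shares. The order of the genes at 72 h cannot be resolved, since no replicate values stand behind it. Directions depend on the scaling: without it, all 10 sums were above solvent at 72 h (0.16 to 0.40), and with a factor taken over all regions 8 of 10 were below (all 10 between -0.23 and 0.0039).

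Promoter regions were then compared, taking for each gene the region of largest solvent AUC within 3 kb of one of its TSSs. The promoter of DSP, a region of 2244 bp over the gene's 5′ end (chr6:7541134-7543377), measured 6777 in the solvent list and 6540, 6445 and 6416 in the lists of 6, 24 and 72 h. JUP (chr17:41785676-41787317) measured 6762, 6034, 5633 and 5921. PKP3 had the most accessible promoter region of the set (chr11:393064-395312), with 7319, 6683, 6374 and 6487, and its summit was 1567 bp inside the gene. PKP2 (chr12:32896156-32897657) measured 4844, 4440, 4267 and 4191. In each of these plaque genes the solvent value was the highest of the 4.

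The 4 cadherin promoters each had their lowest value at 72 h. DSC2 (chr18:31100691-31102704) stayed at 4276, 4248 and 4282 up to 24 h and measured 3549 at 72 h, a log2 ratio of -0.27. DSC3 (chr18:31041324-31043238) measured 5894, 5697, 5556 and 5331. DSG2 (chr18:31497551-31498764) measured 3486, 3398, 3310 and 3185. DSG3 had a smaller promoter region of 534 bp (chr18:31447438-31447971), with 1860, 1792, 1819 and 1617. The promoter of PERP (chr6:138106909-138108427) also stayed under its solvent value, with 3964, 3876, 3561 and 3670, and was lowest at 24 h.

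PKP1 was the exception among the 10 genes. No region in the lists used here lay within 3 kb of its 5′ end, and its promoter region by the rule was an intronic one near an internal TSS, 35770 bp from the 5′ end (chr1:201318837-201319348). It went from 616 in solvent to 641, 845 and 962, a log2 ratio of 0.64 at 72 h. The other 9 were all lower than solvent at 72 h, with log2 ratios from -0.27 to -0.08. Over the 10 genes the medians were -0.05, -0.08 and -0.16 at 6, 24 and 72 h. Over all protein-coding genes with such a region they were -0.06, -0.08 and -0.08, and 69.3% of 15001 were lower at 72 h. Taking the region of largest solvent AUC itself favours ratios below 1, for these genes and for all genes alike. Without scaling only DSC2 was lower at 72 h (-0.02).

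The 138 regions comprised 74 distal regions, 32 within 3 kb of a TSS of a desmosome gene and 32 within 3 kb of a TSS of another gene. Most were constitutive. A peak in all 4 lists was present at 108 regions, or 78.3%, compared with 62.6% of all regions. Appearance in the lists of all 3 TGFβ1 times without a solvent peak, the commonest pattern of gain in the series with 14.3%, applied to 9 desmosome regions, or 6.52%. Another 5 regions had a peak at 24 and 72 h alone (3.62%, 7.55% of all) and 2 at 72 h alone (1.45%, 4.61% of all). A peak at 6 h alone was found at 5 regions (3.62%, 2.03% of all), and no desmosome region was specific for solvent. Shares of a few regions are imprecise, and the regions are not replicates.

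At regions with a peak in both lists, the median log2 ratios at 6, 24 and 72 h were 0.05, 0.04 and -0.06 around desmosome genes, compared with 0.06, 0.12 and 0.15 for all regions. At distal regions, where the series gained most, they were 0.08, 0.11 and 0.03 compared with 0.12, 0.23 and 0.27. The quartiles at 72 h were -0.19 and 0.27 over all 108 desmosome regions. At 6, 24 and 72 h, 6, 9 and 11 regions were at least 2-fold higher, which is 4.35%, 6.52% and 7.97%, where the whole series had 4.03%, 11.7% and 15.3%. At least 2-fold lower were 0, 2 and 4 regions, which is 0%, 1.45% and 2.90%, where the whole series had 0.209%, 0.97% and 1.43%. The shares of higher regions were therefore below those of the series at 24 and 72 h, also among distal regions (9.46% compared with 18.6% at 72 h), and those of lower regions rest on 4 regions at most. PKP1 carried 28 of the regions. Without its window, 8 of 110 regions were at least 2-fold higher (7.27%) and 2 at least 2-fold lower (1.82%) at 72 h. Without the window of JUP, 4 of 120 regions were higher at 6 h (3.33%) and 6 at 24 h (5%), and 1 was lower at 24 h (0.833%). Without that of PKP3, 1 of 120 was lower at 24 h (0.833%).

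**Figure D2:**
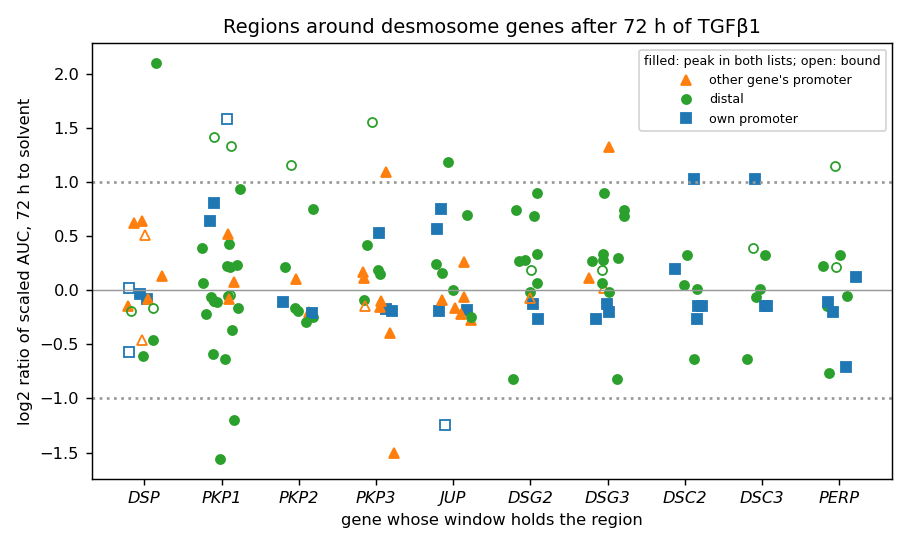
Log2 ratio of the scaled AUC at 72 h to solvent for each region, by the gene whose window holds it. Regions shared by neighbouring genes appear in both columns, symbols mark the class of region, open symbols are limits set with the floor, and dotted lines mark 2-fold. Most regions lie within 0.5 of 0, and the highest, upstream of DSP, is at 2.10.

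Among regions with a peak in both lists, the strongest change at 72 h was the opening of a region upstream of DSP. It spans 466 bp at chr6:7528532-7528997, with its summit 12613 bp before the 5′ end of the gene and 10885 bp from the nearest TSS, that of a gene known only by its identifier. It went from 416 with solvent to 1516, 1737 and 1781 at the 3 times, log2 ratios of 1.86, 2.06 and 2.10. This was the only desmosome region whose ratio or lower limit was at least 2-fold higher at all 3 times, and most of the rise was present at 6 h. Inside the gene, a region in an intron (chr6:7548714-7549093) went from 390 to 445, 252 and 257, a log2 ratio of -0.61 at 72 h. A weak peak over an exon of DSP (chr6:7559735-7560023) measured 251, 233 and 179 and had no peak at 72 h, and one beyond the gene near a start of SNRNP48 (chr6:7589201-7589614) measured 232 and 229 and had none at 24 and 72 h. A larger intronic region (chr6:7553537-7554269) measured 1495, 1534, 1517 and 1083, and one near a start of DSP-AS1 (chr6:7545312-7546563) measured 834, 1631, 1322 and 1302. The regions described around DSP differed in both directions beside a steady promoter, and naming the highest and the lowest of a window favours this.

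The window of PKP1 held regions that moved in opposite directions. Upstream of the gene, a region of 857 bp with its summit 6297 bp before the 5′ end (chr1:201276921-201277777) went from 228 to 866 at 6 h and 1059 at 24 h and was back at 268 at 72 h. With log2 ratios of 1.93, 2.22 and 0.23, it was transient. At 6 and 24 h it was the highest of the desmosome regions with a peak in both lists. A region 14546 bp upstream (chr1:201268376-201269405) instead stayed high, at 1295, 2454, 2539 and 2476, a log2 ratio of 0.93 at 72 h. Beside it, 12628 bp upstream (chr1:201270674-201271084), a peak absent in solvent appeared with 338, 577 and 532, at least 2.66-fold above the floor at 72 h.

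The lowest desmosome region at 72 h with a peak in both lists was also in PKP1. It lies in an intron, 5665 bp from the 5′ end (chr1:201288749-201289331), and went from 1076 with solvent to 944, 864 and 365 at the 3 times, a log2 ratio of -1.56. Most of its decline fell between 24 and 72 h. A region 69986 bp from the 5′ end, beyond the gene and nearest to a TSS of TNNT2 (chr1:201353008-201353812), went from 2444 to 1907, 1664 and 1066, a log2 ratio of -1.20, and declined at every step. Toward the 3′ end of PKP1, new peaks appeared in an intron near an internal start (chr1:201327772-201328037), with 289, 451 and 599, and downstream (chr1:201335295-201335610), with 361, 350 and 504. These are at least 2.99-fold and 2.52-fold above the floor at 72 h. Of the regions with the largest solvent values in the window, one at 26239 bp in an intron measured 9018, 9642, 9811 and 8684, and one 23355 bp upstream (chr1:201259169-201262266) measured 8733, 9114, 10275 and 10168. The regions described in this window differed in both directions, which their selection favours, while the sum of the window stayed level.

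**Figure D3:**
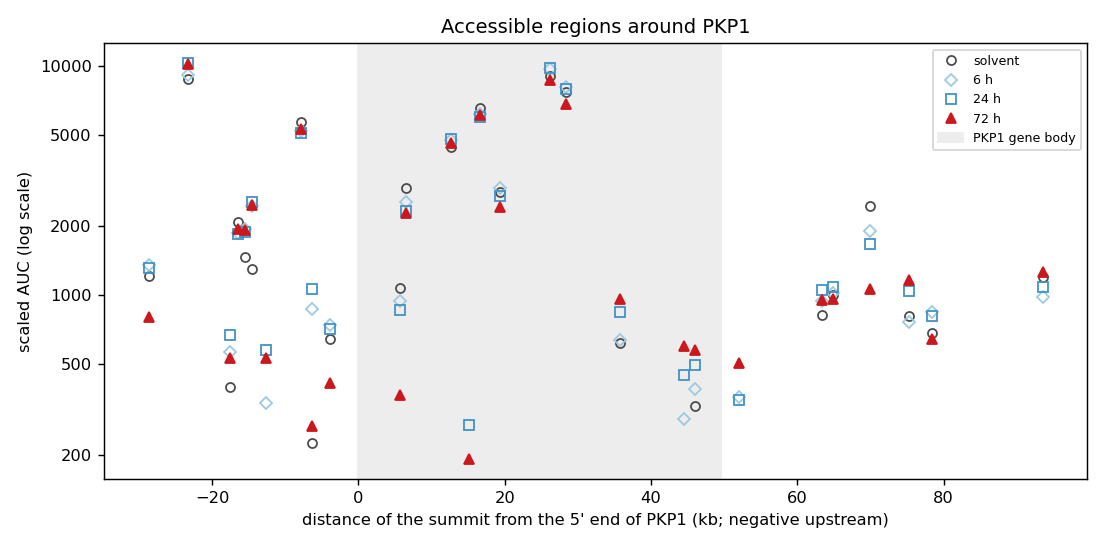
Scaled AUC (log scale) of the regions around PKP1 against the distance of their summit from the gene's 5′ end in kb, with 1 symbol per condition and the gene body shaded; a condition without a peak has no symbol. The region 6.3 kb upstream is high at 6 and 24 h and low again at 72 h, and the one at 5.67 kb falls from 1076 to 365.

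The window of JUP had 3 regions that were at least 2-fold higher at some time. It holds 6 other protein-coding genes, so that assignment of these regions to JUP rests on position alone. One beyond the 3′ end of JUP and nearest to HAP1 (chr17:41739699-41740260) went from 475 to 724, 1035 and 1077, a log2 ratio of 1.18 at 72 h. One in an intron of JUP (chr17:41775263-41776057) went from 615 to 1276, 1394 and 1030. One 12547 bp upstream and nearest to a TSS of P3H4 (chr17:41799163-41799698) went from 480 to 1130, 1152 and 777. The last pair passed 2-fold at 6 and 24 h and had log2 ratios of 0.75 and 0.70 at 72 h. In contrast, a small region 2619 bp upstream of the 5′ end of JUP (chr17:41789243-41789608) measured 399 and 275 and had no peak at 24 and 72 h. It lies within 3 kb of a TSS of JUP and was at least 2.37-fold lower at 72 h.

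Around PKP3, both 2-fold changes among regions with a solvent peak were at promoters of other genes. A region 34 bp from a TSS of B4GALNT4 (chr11:369348-369956) went from 382 to 854, 708 and 813, a log2 ratio of 1.09. A region beyond PKP3 and 1145 bp from a TSS of PTDSS2 (chr11:446953-447225) declined from 748 to 410, 347 and 264, which is 2.83-fold lower at 72 h. A distal peak 33142 bp upstream (chr11:359307-359633), absent in solvent, measured 228, 416 and 587. The window is dense and holds 4 other protein-coding genes, so that assignment of these regions to PKP3 rests on distance alone.

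PKP2, a plakophilin of simple epithelia and heart, showed smaller differences. Its highest region, 47627 bp upstream (chr12:32944041-32944628), measured 672, 851, 1171 and 1130, a log2 ratio of 0.75 at 72 h. Its lowest, 23908 bp upstream (chr12:32920235-32920975), measured 1234, 1023, 866 and 1005. Next to the latter a peak absent in solvent (chr12:32921478-32921749) measured 290, 248 and 446, at least 2.23-fold above the floor at 72 h.

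In the cadherin cluster on chromosome 18, the regions that were highest at 72 h rose step by step in scaled AUC. Choosing the highest at 72 h favours such a rise. Within the gene body of DSG4, 1782 bp from a TSS of DSG1-AS1 and 47856 bp upstream of DSG3 (chr18:31399711-31400008), the signal went from 236 to 456, 543 and 590, a log2 ratio of 1.32. Between DSG3 and DSG2, 8651 bp before the start of the latter (chr18:31489411-31489654), it went from 269 to 380, 428 and 503, a log2 ratio of 0.90. In an intron of DSC3, 3078 bp from its 5′ end (chr18:31039571-31039839), it went from 301 to 400, 469 and 613, a log2 ratio of 1.03. All 3 were higher at each later time after scaling. Before scaling, the first of them measured 707 at 24 h and 700 at 72 h. Other gains there receded, as at a region 28227 bp upstream of DSG3 (chr18:31419394-31420066) with 822, 1165, 1236 and 1013.

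Losses in the cluster were partial. A region in an intron of DSG3, 4119 bp from the 5′ end (chr18:31451650-31452180), declined from 1043 to 997, 738 and 590, a log2 ratio of -0.82. A region 4248 bp upstream of DSC3 (chr18:31046975-31047303) held 697, 739 and 660 up to 24 h and measured 449 at 72 h, a log2 ratio of -0.63. A further region in DSG3, 1648 bp from the 5′ end (chr18:31448911-31449469), had a peak at 6 h alone, with 408. The regions named for the cadherin genes lay on both sides of solvent, which naming the highest and the lowest of each window favours. DSC2 and DSC3 share their highest and their lowest region, and DSG2 and DSG3 share their lowest.

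PERP had no region with a solvent peak that passed 2-fold. The highest at 72 h, in an intron (chr6:138099903-138100326), measured 519, 658, 614 and 652, a log2 ratio of 0.33 at 72 h, and the lowest, 8691 bp upstream (chr6:138116028-138116183), measured 306, 277, 226 and 180, a log2 ratio of -0.76. Beyond the gene, 62780 bp from its 5′ end (chr6:138044521-138044807), a peak absent in solvent and at 6 h measured 276 at 24 h and 442 at 72 h, at least 2.21-fold above the floor at the last time.

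**Figure D4:**
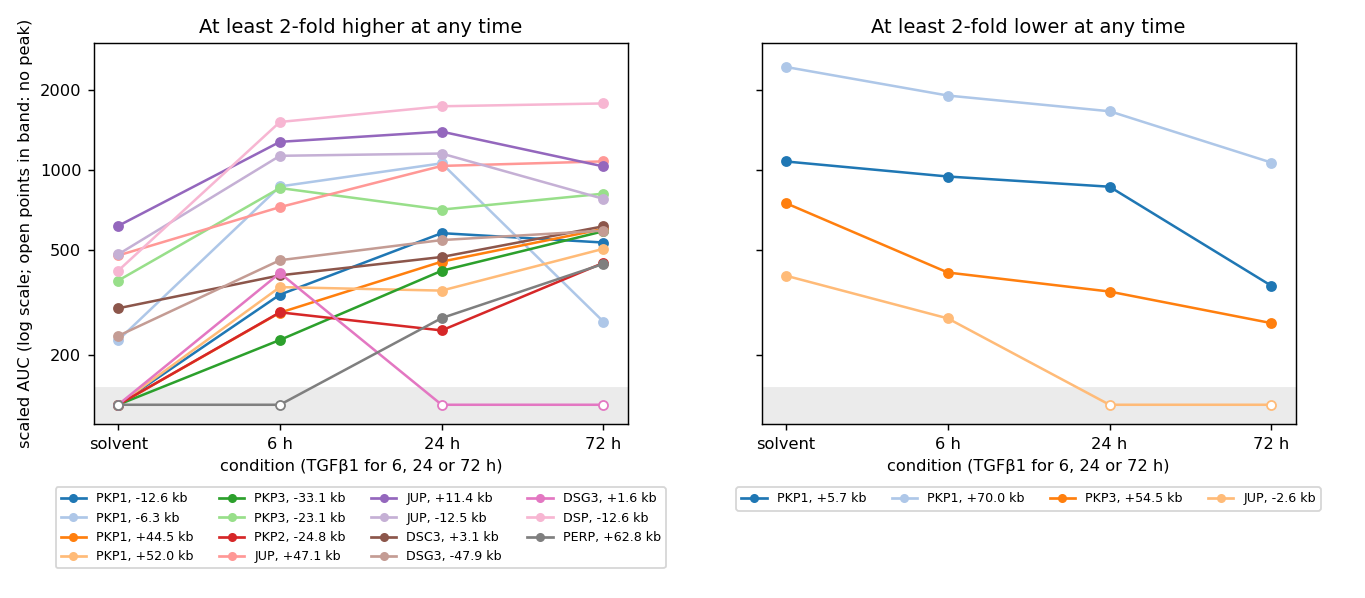
Scaled AUC (log scale) of the 15 regions at least 2-fold higher (left) and the 4 at least 2-fold lower (right) than solvent at any time, labelled with the gene and the distance of the summit from its 5′ end in kb. Open points in the grey band mark lists without a peak; the region upstream of DSP ends highest on the left with 1781, and the one in an intron of PKP1 drops from 1076 to 365 on the right.

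Over all times, the 15 regions at least 2-fold higher, a smaller share than in the whole series, were distal in 9 cases, near a TSS of a desmosome gene in 4 and near that of another gene in 2. Of the regions with a peak in one list and none in the other, 17 were gained and 3 lost by 72 h, which is 12.3% and 2.17%, where all regions had 27% and 2.24%. These were weak: the gained peaks had a median deposited AUC of 274.5 at 72 h with a largest value of 710, and the lost ones had deposited solvent AUCs between 232 and 399, close to the floor of 200.

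Both strands of the sequence within 100 bp of each summit were searched for motifs. The AP-1 motif TGANTCA was found in 48 of the 138 desmosome regions (34.8%, compared with 40.5% of all regions) and in 4 of the 15 that were at least 2-fold higher at some time (26.7%, compared with 56.3% of all such regions). These 4 are the gained regions near the 3′ end of PKP1, downstream of PKP1 and upstream of PKP3, and the region upstream of DSG3 printed above. The regions upstream of DSP and downstream of JUP, printed beside it, contained no match. Among distal desmosome regions 40.5% contained the AP-1 motif, compared with 47.3% of all distal regions. Within 3 kb of any TSS 28.1% did, compared with 27.5% of all such regions. The AP-1 motif was found in 0 of the 4 regions at least 2-fold lower, compared with 12.2% of all lower regions. The E-box CACCTG was found in 35 regions (25.4%, compared with 17.9% of all), in 28.4% of the distal ones compared with 17.7%, and in 2 of the 4 that were at least 2-fold lower, downstream of PKP1 and PKP3. In the whole series 31.9% of the lower regions contained it. The E-box was also found in 3 of the 15 that were at least 2-fold higher (20%, compared with 13% of all such regions). In the region downstream of PKP3 the match lies outside the bases printed. The grainyhead-like motif AACCNGTT, named for epithelial factors, was found in 2 regions (1.45%, compared with 1.31%), one of them the declining region in the DSG3 intron, and the SMAD palindrome GTCTNGAC in 3 (2.17%, compared with 1.35%), none of which passed 2-fold. None of the 4 motifs contains another. A match describes letters in a window and not binding.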

How the data were processed

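ATAC-seq of MCF10A cells was available as 4 deposited peak lists on GRCh38, 1 for each condition, each pooled from 2 replicates. Per the methods of the study and the submitters' processing notes, the authors trimmed reads (Trimmomatic 0.38), mapped them (Bowtie2 2.4.5), removed duplicates (Picard), filtered with SAMtools 1.4.1 (mapping quality above 30) and called peaks on both replicates with Genrich 0.5 at an AUC above 200 and an adjusted p below 0.01, without blacklisted regions. The deposited signal (column 7) is the AUC, and the deposited −log10 p of each peak was used in one alternative; neither was normalised between lists by the authors. The depth reached in each list is unknown, so no counting interval is given.

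Peaks of the 4 lists sharing at least 1 bp were merged, and the AUC was summed per region and list. Lists were scaled at regions within 3 kb of a TSS (GENCODE 44, 252835 transcripts), with log2 shifts of 0.44, 0.38 and 0.25 at 6, 24 and 72 h. Windows were the gene body and 50 kb on either side. Limits were 2-fold for regions and 1.5-fold for summed windows. For the ratio of a region, an absent peak was set at an AUC of 200 before scaling. In the sum of a window, an absent peak added nothing. With 1 value per condition, no test was made. Members, gene lists and limits were chosen with earlier results of these data known. Named for each gene were its promoter region and, among other regions with a peak in solvent and at 72 h, the highest and the lowest at 72 h; then the 5 regions of largest AUC at 72 h without a solvent peak and every region lost by 72 h; and, since they were at least 2-fold changed at some time, the remaining regions of that kind. The regions 26239 bp into and 23355 bp upstream of PKP1, the DSP regions at 7545312 and 7553537 and that 28227 bp upstream of DSG3 were chosen after their values were seen. Sequences were read from hg38. One marker gene of another cell type is not reported here. The procedure was tested on lists simulated from the solvent peaks, with changes set only at strong peaks. Peaks absent in solvent were not simulated, and recovery of changes at weak peaks was not tested. Python 3.11.15 was used with pandas 2.3.3 and numpy 2.4.6 for tables and matplotlib 3.10.9 for plots. The alternatives were no scaling, scaling over all regions, an AUC of at least 400, lists of equal length (86209 peaks), at least 100 bp shared, a window of 10 kb, the AUC per base, and the largest −log10 p in place of the AUC.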

Additional observations from a re-analysis of the deposited data

How the results depend on the processing

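No paired analysis was possible because each deposited list pools both replicates of a condition, and for the same reason no replicate could be left out. Of 240 values of single genes under the 8 alternatives, 238 stayed on the same side of 1.5-fold; DSP (0.63) and DSG3 (0.59) passed it at 6 h without scaling. Of 72 summary values, 46 stayed close to those reported. Without scaling, the median log2 ratio of the desmosome regions was 0.49, 0.42 and 0.19 at 6, 24 and 72 h. At least 2-fold higher were 15 of 138 regions at 6 h and 19 at 24 h. At least 2-fold lower were 0 at 24 h and, against 14 higher, 2 at 72 h. Of all regions, 12.9%, 22.9% and 22.1% were then higher at the 3 times. Lower were 0.347% at 24 h and 0.85% at 72 h. Scaling over all regions gave medians of -0.086 at 24 h and -0.20 at 72 h. It left 8 higher and 4 lower regions at 72 h, where all regions had 12.2% and 2.01%. With an AUC of at least 400, 4 of 116 regions were higher at 72 h and 1 lower at 24 h, where all regions had 8.72% and 0.508%. With lists of equal length these were 5 and 1 of 121, where all regions had 9.76% and 0.495%. Fewer weak peaks entered in both. In windows of 10 kb, 3 of 79 regions were higher at each of 6, 24 and 72 h, where all regions had 4.03%, 11.7% and 15.3%. Of these 79, 1 was lower at 24 h and 2 at 72 h, where all regions had 0.97% and 1.43%. Per base, 2 of 138 were higher at 6 h, where all regions had 3.08%. By that measure 1 was lower at 24 h and 2 at 72 h, where all regions had 0.591% and 0.981%. With the largest −log10 p, 0 were higher at 6, 24 and 72 h and 0 lower at 24 and 72 h; at least 2-fold higher by that measure were 0.624% of all regions at 72 h. At least 100 bp shared moved none of these values. The depth reached in the lists is unknown, and its effect on these values was not tested.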

Other observations

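Of 7 further genes of desmosomes and the cornified envelope (DSG1, DSG4, DSC1, PKP4, PPL, EVPL and CDSN), none passed 1.5-fold in summed accessibility at any time. Their median log2 ratio at 72 h was 0.08, where all protein-coding genes had 0.11 and the 10 desmosome genes -0.0036. Their 81 regions, some of which are shared with the desmosome genes above, included 3, 7 and 9 that were at least 2-fold higher at 6, 24 and 72 h (3.7%, 8.64% and 11.1%, where all regions had 4.03%, 11.7% and 15.3%) and 0, 1 and 3 that were at least 2-fold lower (0%, 1.23% and 3.7%, where all regions had 0.209%, 0.97% and 1.43%). DSC1, a desmocollin of differentiated epidermis, had the largest sums relative to solvent, with log2 ratios of 0.30, 0.50 and 0.33. PPL, which encodes periplakin, a plakin of desmosomes and the cornified envelope, had the lowest at 72 h with -0.25. Its most accessible region near a TSS, 23344 bp from the 5′ end of the gene (chr16:4936098-4938054), declined at each time, from 4079 in solvent to 3170 at 6 h, 2490 at 24 h and 1731 at 72 h, a log2 ratio of -1.24. The promoter regions of EVPL, PKP4 and CDSN had log2 ratios of -0.08, -0.19 and 0.16 at 72 h.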
